A study of Homo sapiens with 12 samples.

Results

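The secretory cytokines of senescence are 10 genes: CXCL8, CXCL1, CXCL2, CXCL5, IL6, IL1A, IL1B, CCL2, CCL20 and LIF. They were chosen by symbol and matched by Ensembl identifier to the deposited count table of 20595 genes, where 8 of the 10 have a row. CXCL5 and IL1A have none, so their mRNA levels were not analysed here and only their sequences were described. The RNA came from 2 human lines of lung adenocarcinoma in which MDM2 is amplified, A549 and H1792, grown for 48 h with DMSO (the solvent) or with 1 µM RG7112, a nutlin family inhibitor that blocks the binding of p53 to MDM2. The 4 groups were A549 with DMSO, A549 with RG7112, H1792 with DMSO and H1792 with RG7112, with 3 replicates each and 12 samples in all. In most of the study's text A549 is p53 WT and H1792 carries mutant p53, and the sentence on the RNA-seq design has the status of both lines the other way round. The sample labels give the dose as 1 µM, while the columns of the table carry 0.1 µM in their names. Nothing states whether the replicates were separate cultures, so p-values measure only the spread between these samples. Each group is a single cell line, so any property of the 2 lines other than p53 cannot be told apart from p53 status.

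Cells in senescence, a lasting arrest of division, release a mixture of signals known as the senescence-associated secretory phenotype. Its core is made of the chemokines CXCL8, CXCL1, CXCL2 and CXCL5, which draw neutrophils through the receptors CXCR1 and CXCR2, of CCL2 and CCL20, which draw monocytes and lymphocytes, and of the interleukins IL6, IL1A and IL1B. LIF is a cytokine of the IL6 family that signals through the shared receptor subunit IL6ST. In many cell types the transcription factors NF-kB and C/EBP drive these genes, surface IL1A feeds back on them, and AU-rich elements in the 3′ UTR keep their mRNAs short-lived. p53 is known to start the arrest and also to hold back parts of the secretory programme.

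The stretches next to the transcription start are shown because the genes share their regulatory letters there. The lines below give the 150 bases just upstream of the start on GRCh38.p14, as RefSeq annotates it, 5′ to 3′ on the strand of the gene. Capitals mark GGNNTTTCC, a short form of the NF-kB site in which N is any base, searched on both strands. CXCL8 lies at chr4:73740419-73740568 (plus strand), CXCL1 at chr4:73869243-73869392 (plus), CXCL2 at chr4:74099196-74099345 (minus) and IL6 at chr7:22727050-22727199 (plus).
CXCL8: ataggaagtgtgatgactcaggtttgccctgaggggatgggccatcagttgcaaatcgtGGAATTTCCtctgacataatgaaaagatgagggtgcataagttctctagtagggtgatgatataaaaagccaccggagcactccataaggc
CXCL1: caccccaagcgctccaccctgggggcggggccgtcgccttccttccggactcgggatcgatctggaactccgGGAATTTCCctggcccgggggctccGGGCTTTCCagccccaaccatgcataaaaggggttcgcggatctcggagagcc
CXCL2: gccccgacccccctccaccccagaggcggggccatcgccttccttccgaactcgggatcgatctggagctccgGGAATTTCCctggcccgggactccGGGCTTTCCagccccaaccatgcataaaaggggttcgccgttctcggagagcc
IL6: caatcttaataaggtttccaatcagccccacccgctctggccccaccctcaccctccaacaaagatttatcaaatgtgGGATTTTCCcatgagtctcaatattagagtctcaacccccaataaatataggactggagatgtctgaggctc
CXCL1 and CXCL2, both in the chemokine cluster on chromosome 4, have near-copies of the same stretch. In a global alignment 134 bases of 151 aligned columns were identical (88.7%), against 43.6% to 52.1% for the other pairs of these 4 stretches. CXCL1 and CXCL2 hold the NF-kB letters at 2 places, CXCL8 and IL6 at 1. Of the 8 listed genes with an entry in the RefSeq promoter table, 6 (CXCL8, CXCL1, CXCL2, CXCL5, IL6 and CCL20) held GGNNTTTCC between 250 bases before and 50 after the start, where 6.26% of 35116 promoters did. CCL2 and LIF have no entry there. The letters were picked with the known sites of such promoters in mind. The AP-1 letters TGANTCA were found in CXCL8 and IL1A (7.71% of promoters), the C/EBP letters TTGCNNAA in CXCL2, IL1B and IL6 (10.5%), and TATAAA in CXCL8, IL1A and CCL20 (11.5%). Binding was not measured, so a match of letters is a description of the sequence alone.

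The 3′ UTRs are shown for the AU-rich element, whose core is ATTTA in DNA letters. Each line gives the 30 bases with the most ATTTA in the 3′ UTR of the GENCODE v29 transcript on GRCh38, with ATTTA in capitals. The stretches lie at chr4:73743108-73743137 (plus) for CXCL8, chr4:73870665-73870694 (plus) for CXCL1, chr4:74097590-74097619 (minus) for CXCL2, chr7:22731697-22731726 (plus) for IL6 and chr17:34256938-34256967 (plus) for CCL2.
CXCL8: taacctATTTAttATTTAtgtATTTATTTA
CXCL1: cttaggagaagtcttctATTTATTTATTTA
CXCL2: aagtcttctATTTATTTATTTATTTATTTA
IL6: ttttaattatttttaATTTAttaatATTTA
CCL2: tatgccttaagtaatgttaattcttATTTA
CXCL2 has 5 ATTTA cores in these 30 bases, CXCL8 has 4, CXCL1 has 3 and IL6 has 2, overlapping ones included. CCL2 holds a single core in a 3′ UTR of 376 bases, which makes 2.66 per kb. Over the whole 3′ UTR the density was 13.99 per kb in IL6, 13.9 in CXCL2, 7.19 in CXCL8 and 7.08 in CXCL1, where the median of 17230 protein-coding genes was 1.502. All 10 listed genes were above that median, with LIF lowest at 2.18 per kb. Decay of the mRNAs was not measured.

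Levels are given in CPM, a count divided by its TMM-adjusted library size, and differences as log2 fold changes from edgeR's quasi-likelihood test with Benjamini-Hochberg adjusted p over all genes tested. A gene was called when the adjusted p was under 0.05 and the absolute log2 fold change was over 1, the study's thresholds. The total ranged from 2011916 to 6218825 counts per sample, so that 3 counts stood for 0.465 to 1.43 CPM, a limit that covers counting error only. Replicate 3 of both A549 treatments stood apart from the other A549 samples on a principal component with 25.6% of the variance (-51.8 and -43.7 against 9.43 to 45.3). MDM2, a p53 target, rose in A549 from 8.54 ± 4.99 to 69.2 ± 9.27 CPM (SD, n = 3; log2 fold change 2.99, standard error 0.45, adjusted p = 0.0102). CDKN1A, the p53 target that halts the cell cycle, rose there from 37.2 ± 11.4 to 445 ± 431 CPM (SD, n = 3; 3.58, standard error 0.70, adjusted p = 0.0252). Without DMSO replicate 2 the adjusted p of MDM2 was 0.0534, and without DMSO replicate 1, 2 or 3 that of CDKN1A was 0.0867 to 0.0960. In H1792 their log2 fold changes were -0.05 and 0.15 (adjusted p = 0.928 and 0.882). The summed CPM of 7 airway epithelial markers was 14496 to 24107 in A549 and 1071 to 2190 in H1792, while 6 fibroblast markers summed to 1.91 to 9.22 in A549 and 1117 to 1426 in H1792. Of 6 leukocyte markers, CD68 and CD14 carried nearly all counts (7.49 to 122 CPM summed) and CD3E and LYZ had none, with 1 count of PTPRC in the 12 samples, and 4 endothelial markers summed to at most 1.91 CPM. Some markers moved with RG7112, and their part in the results below was not tested. In A549 the epithelial keratin KRT19 was called higher (log2 fold change 1.27, adjusted p = 0.00602). CD68 went there from 21.8 ± 12.3 to 66.0 ± 33.0 CPM (SD, n = 3; 1.61, adjusted p = 0.102, called by DESeq2) and CD14 from 22 ± 2.94 to 15.2 ± 2.20 CPM (SD, n = 3; adjusted p = 0.239). In H1792, of 6 epithelial markers tested, KRT18 and MUC1 were called lower, by 1.04 and 1.59 on the log2 scale (adjusted p = 0.00437 and 0.0202). EPCAM went the other way, from 2.27 to 5.04 mean CPM, and was not called. MUC1 had at most 10 counts in any RG7112 sample there and entered the test mainly through its DMSO counts. Of 3 fibroblast markers tested there, PDGFRB alone rose, from 0.598 ± 0.519 to 4.66 ± 1.44 CPM (SD, n = 3; adjusted p = 0.0220). With at most 4 counts in any DMSO sample, PDGFRB entered the test through its RG7112 counts, so a higher value there was built into its selection. COL1A1 and COL1A2, which carried nearly all of the fibroblast sum in H1792, went from 279 to 233 and from 1118 to 958 mean CPM.

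With RG7112, A549 cells had more mRNA of 5 cytokines. CXCL1, CXCL8 and IL6 rose 5.17-fold, 3.82-fold and 2.53-fold, with the rise of CXCL1 at 1.68 on the log2 scale without RG7112 replicate 3 in place of 2.37. CXCL2 and CCL2 passed the adjusted p, at 1.98-fold and 1.93-fold, just under the fold threshold. Without a single sample, CXCL2 missed the adjusted p in all 6 fits and CCL2 in 4 of 6. Among the 6 listed genes with enough counts to be tested, 3 were called higher, where 3.18% of 10739 tested genes were. At the adjusted p alone 5 of the 6 passed in the upward direction (4.35% of all genes). The same 5 of the 6 were higher with no overlap between RG7112 and DMSO samples (16.2% of all genes). Both counts rest on the same samples, so the second is not separate support. LIF was the other gene tested. The median log2 fold change of the 6 was 1.16, beside -0.01 over all genes. In bulk RNA, more producing cells and more mRNA per cell cannot be told apart. IL1B and CCL20 had too few counts for the test.

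CXCL8, or interleukin 8, is the main neutrophil chemokine of human cells (ENSG00000169429, chromosome 4, 73740506 to 73743716, plus strand). Its level in A549 was 35.6, 29.01 and 31.9 CPM in DMSO replicates 1, 2 and 3, and 130.03, 146 and 92.1 CPM with RG7112. The lowest RG7112 sample, replicate 3, was still far above the highest DMSO sample. On the log2 scale the rise was 1.93 (standard error 0.22, adjusted p = 0.00315), and CXCL8 kept its call in A549 without any 1 of the samples.

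CXCL1 (ENSG00000163739, chromosome 4, 73869393 to 73871242, plus strand) had 23.1, 29.4 and 19.9 CPM with DMSO and 69.9, 84.9 and 221 CPM with RG7112. Replicate 3 of RG7112 was far above the other RG7112 samples, which gave the group an SD of 83.3 around a mean of 125. On the log2 scale this was a rise of 2.37 (standard error 0.47, adjusted p = 0.0251). The adjusted p was 0.0992, 0.0829 and 0.0854 without DMSO replicate 1, 2 and 3, and 0.0509 with all 12 samples in one fit. Without RG7112 replicate 3 the rise was 1.68 (adjusted p = 0.0146), and without replicate 3 of both treatments, a fit chosen after seeing the data, 1.55 (adjusted p = 0.0149).

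CXCL2 (ENSG00000081041, chromosome 4, 74097035 to 74099293, minus strand) had 24.4, 29.2 and 26.9 CPM with DMSO and 45.4, 51.5 and 62.7 CPM with RG7112. No samples overlapped between treatments, and the log2 difference came to 0.98 (standard error 0.20, adjusted p = 0.0296). Without any 1 of the 6 A549 samples the adjusted p was over the threshold, from 0.0573 (without RG7112 replicate 3) to 0.120 (without DMSO replicate 1), with log2 differences of 0.85 to 1.09. The mRNAs of CXCL1 and CXCL2 are alike, with 15.5% of the 31-base stretches of CXCL1 also present in CXCL2, so that estimated counts can pass between them. When the counts of both genes were added, an alternative chosen after seeing the data, the sum was higher with RG7112 by 1.81 on the log2 scale (standard error 0.35, adjusted p = 0.0246).

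IL6, the interleukin of the acute-phase response (ENSG00000136244, chromosome 7, 22725884 to 22732002, plus strand), had 12.5, 9.90 and 13.9 CPM with DMSO and 27.3, 31.9 and 32.6 CPM with RG7112. All RG7112 samples lay above all DMSO samples. The rise was 1.34 on the log2 scale (standard error 0.23, adjusted p = 0.0161). Without DMSO replicate 1, DMSO replicate 2, RG7112 replicate 1 or RG7112 replicate 2, the adjusted p was 0.0727, 0.0810, 0.0511 and 0.0649, while the log2 fold change stayed between 1.20 and 1.41 in these fits. IL6 overlaps STEAP1B and AC073072.1 on the opposite strand, and 24.6% of its 31-base stretches are also in transcripts of AC073072.1, so part of its count may belong to that gene.

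CCL2, the monocyte chemokine MCP-1 (ENSG00000108691, chromosome 17, 34255218 to 34257203, plus strand), was the most abundant of the listed genes in A549. It had 107, 81.7 and 111 CPM with DMSO and 187, 184 and 206 CPM with RG7112. The treatments did not overlap, and the log2 difference came to 0.95 (standard error 0.16, adjusted p = 0.0141). The adjusted p was 0.0578, 0.0607, 0.0556 and 0.0510 without DMSO replicate 1, DMSO replicate 2, RG7112 replicate 1 and RG7112 replicate 2. With a correction for GC content (a loess curve for each sample), CCL2 and CXCL2 also passed the fold threshold in A549, at 1.21 and 1.11 (adjusted p = 0.0166 and 0.0302), which brought the number called to 5.

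LIF (ENSG00000128342, chromosome 22, 30240447 to 30246851, minus strand) was counted unevenly. It had 25, 26 and 3 counts in the A549 DMSO samples and 27, 0 and 0 with RG7112, which overlap. Its log2 fold change of -1.33 had a standard error of 1.28 (adjusted p = 0.590). In H1792 it had no count in the DMSO samples and 0, 26 and 5 counts with RG7112, too few to test. LIF overlaps LIF-AS1 and AC004264.1 on the opposite strand.

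IL1B, the secreted form of interleukin 1 (ENSG00000125538, chromosome 2, 112829751 to 112836903, minus strand), was close to the floor. It had no count in A549 with DMSO and 10, 5 and 0 counts with RG7112. In H1792 it had 2, 0 and 0 counts with DMSO and 5, 4 and 5 with RG7112. CCL20, which draws cells through CCR6 (ENSG00000115009, chromosome 2, 227805739 to 227817564, plus strand), had 0, 5 and 2 counts in A549 with DMSO and none in the other 9 samples. A difference in either gene was not detectable at this depth.

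**Figure D1:**
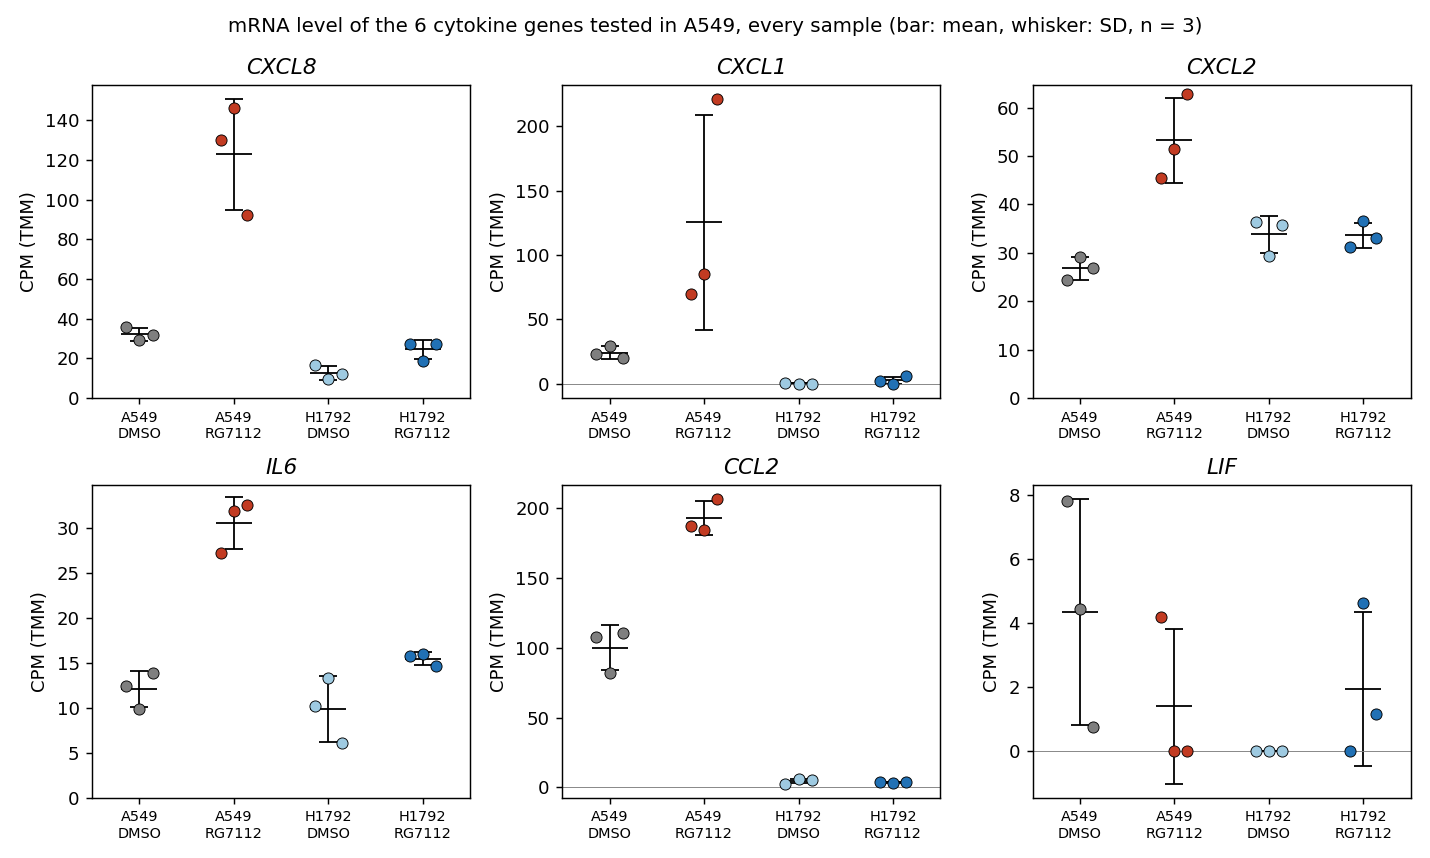
TMM-scaled CPM (vertical axis, linear) of the 6 cytokine genes tested in A549, by group, with 1 point per replicate, a bar at the mean and whiskers of 1 SD (n = 3). CXCL8, CXCL1, CXCL2, IL6 and CCL2 show no overlap between RG7112 and DMSO in A549, CXCL1 has a single high RG7112 sample at 221 CPM, and LIF has samples at 0 in 3 of the 4 groups.

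In H1792, CXCL8 was the single gene called among the 4 tested, and 10.3% of 9914 tested genes were called higher in this line. At the adjusted p alone the count was also 1 (17.7% of all genes were higher by that rule). In 2 of the 4, CXCL8 and IL6, the treatments did not overlap (24.9% of all genes were higher without overlap). The median log2 fold change of the 4 was 0.39, beside 0.01 over all genes. Fold changes of all genes in H1792 followed the GC content of their transcripts (Spearman's rho across 9165 genes -0.495, against 0.256 across 9941 genes in A549), and genes are not independent replicates. The CXCL8 transcript has a GC content of 33.4%, IL6 44.5%, CXCL2 46.0% and CCL2 41.0%, where the median of the table was 49.2%.

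In H1792, CXCL8 had 16.6, 9.46 and 12.2 CPM with DMSO and 27.4, 18.9 and 27.2 CPM with RG7112. The lowest RG7112 sample was just above the highest DMSO sample. The log2 difference was 1.02 (standard error 0.29, adjusted p = 0.0349), a 2.02-fold difference that barely passed the fold threshold. It was 0.22 with the GC correction (standard error 0.28, adjusted p = 0.605) and 0.95 with all 12 samples in one fit. It also lost its call without DMSO replicate 2 or 3 and without RG7112 replicate 1 or 3 (log2 fold change 0.80, 1.00, 0.93 and 0.92, adjusted p = 0.0979, 0.0912, 0.0812 and 0.104).

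IL6 in H1792 had 10.2, 13.4 and 6.10 CPM with DMSO and 15.8, 16.0 and 14.7 CPM with RG7112. The samples did not overlap, but the log2 fold change of 0.70 did not pass the test (standard error 0.29, adjusted p = 0.105), and with the GC correction it was 0.28. CXCL2 had 36.3, 29.3 and 35.8 CPM with DMSO and 31.3, 36.5 and 33.1 CPM with RG7112. These overlapped throughout, with a log2 difference of 0.07 (standard error 0.16, adjusted p = 0.774) that turned to -0.28 with the GC correction. CCL2 had 2.82, 6.001 and 5.23 CPM with DMSO and 3.87, 3.38 and 3.96 CPM with RG7112, at most 26 counts in any of these samples. Its log2 difference between treatments was -0.26 (standard error 0.37, adjusted p = 0.628), and 0.0065 with library size alone as the scale. CXCL1 was not tested in H1792, where it had 2, 0 and 0 counts with DMSO and 9, 0 and 24 with RG7112.

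**Figure D2:**
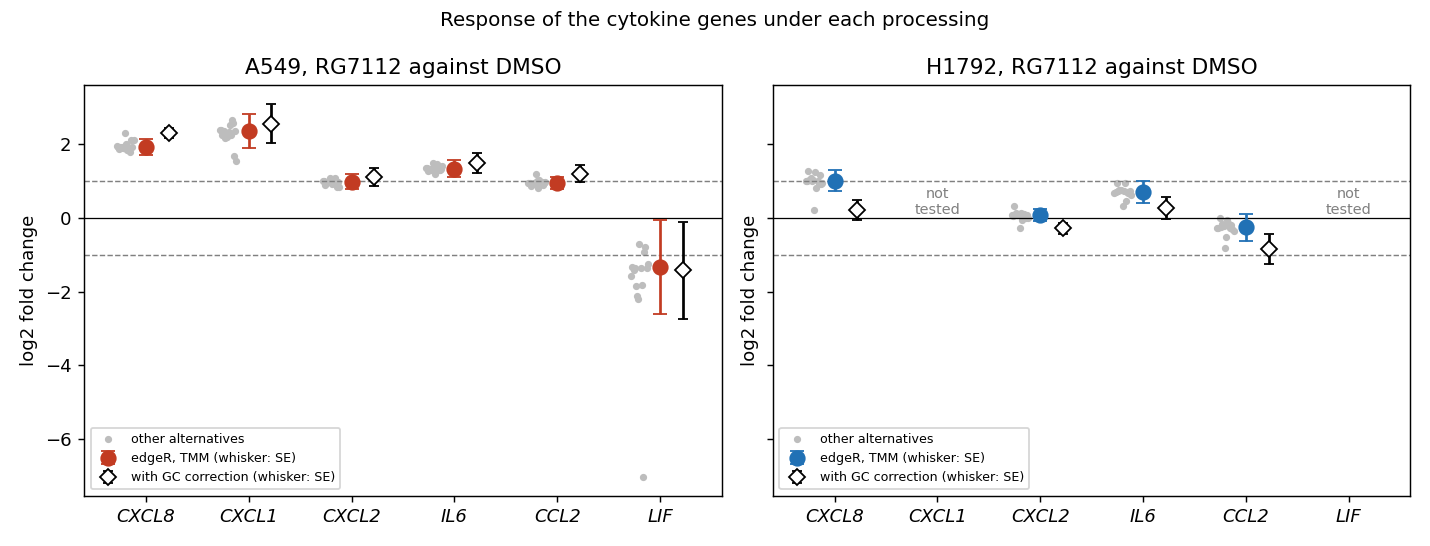
Log2 fold change of RG7112 against DMSO (vertical axis) for the 6 cytokine genes in A549 (left) and H1792 (right). Coloured circles are the edgeR values, open diamonds those with the GC correction (whiskers: standard error), grey points the other alternatives, and dashed lines the fold threshold. In A549 the values of CXCL8, CXCL1, IL6, CXCL2 and CCL2 stayed above 0 under every alternative plotted, while in H1792 CXCL8 moved from 1.02 to 0.22 with the GC correction.

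The difference between the responses was tested in the fit of all 12 samples, as the A549 response less the H1792 response on the log2 scale. CXCL2 and CCL2 passed the adjusted p of 0.05 among 6 tested, both with a higher value in A549, and 10.4% of 11666 genes passed in that direction. For CXCL2 the difference was 0.99 (standard error 0.24, adjusted p = 0.0173). It lost its call without A549 DMSO replicate 1 (adjusted p = 0.0570), without H1792 RG7112 replicate 3 (0.0541) and with library size alone (0.58, adjusted p = 0.107), a scaling that moved the median of all genes by -0.39. Relative to that shift it was 0.97. For CCL2 the difference was 1.30 (standard error 0.32, adjusted p = 0.0174), with no call without H1792 DMSO replicate 2 (1.02, adjusted p = 0.0736) or H1792 RG7112 replicate 2 (1.18, adjusted p = 0.0531).

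For CXCL8 the difference of 0.98 did not pass (standard error 0.35, adjusted p = 0.0674). It passed with DESeq2 (1.03, adjusted p = 0.0302), without A549 RG7112 replicate 3 (1.15, adjusted p = 0.0400) and with the GC correction (2.06, adjusted p = 0.00160). For IL6 the difference was 0.72 (standard error 0.37, adjusted p = 0.194). For CXCL1 it was -1.02 with a standard error of 1.73 (adjusted p = 0.715), with 2 counts in all in the H1792 DMSO samples, and the sign turned with limma-trend and without H1792 RG7112 replicate 3. LIF did not pass either (adjusted p = 0.132), with no count in H1792 with DMSO. The summed counts of CXCL1 and CXCL2 gave a difference of 1.71 (standard error 0.41, adjusted p = 0.0156).

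Untreated, the lines differed in their cytokine mRNAs. CCL2 was at 99.9 ± 15.8 CPM in A549 and 4.68 ± 1.66 CPM in H1792 (SD, n = 3), a log2 difference of -4.38 for H1792 minus A549 (standard error 0.23, adjusted p = 1.12e-07). CXCL1 was at 24.1 ± 4.80 CPM in A549 and at 2 counts or fewer in every H1792 DMSO sample, at least 23.7-fold higher in A549 when H1792 is set to 3 counts per library (adjusted p = 0.00118). CXCL8 was at 32.2 ± 3.31 and 12.7 ± 3.58 CPM (log2 difference -1.34, standard error 0.26, adjusted p = 0.00131). These 3 of 6 tested genes were called lower in H1792, as were 20.4% of all genes. CXCL1 and LIF had too few counts to be tested in H1792 alone. They entered this fit mainly through their A549 counts, so a lower value in H1792 was built into their selection. CXCL2 did not pass, with a log2 difference of 0.33 (standard error 0.17, adjusted p = 0.144), nor did IL6, with -0.26 (standard error 0.27, adjusted p = 0.447). LIF had 25, 26 and 3 counts in the A549 DMSO samples, the last at the floor, and none in H1792 with DMSO. Its A549 mean was 4.25 times the H1792 floor, carried by replicates 1 and 2 (7.81 and 4.44 CPM against 0.747 in replicate 3). LIF did not pass (adjusted p = 0.0545), but it was called under 10 of the alternatives. The cell line and any difference in how its samples were handled cannot be told apart, and these comparisons share the DMSO samples with the responses.

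Set per kb of transcript, which makes levels comparable between genes, CCL2 led in A549 with DMSO at a mean of 135 CPM per kb. CXCL2 (22), CXCL1 (22) and CXCL8 (18.9) followed, then IL6 (7.93) and LIF (1.09). With RG7112 the order in A549 was CCL2 (259.5), CXCL1 (114), CXCL8 (72.0), CXCL2 (43.7) and IL6 (20.04). In H1792 CXCL2 led in both treatments (27.7 and 27.6 CPM per kb), followed by CXCL8 (7.47 and 14.4), IL6 (6.49 and 10.1) and CCL2 (6.32 and 5.04). Summed over the 8 genes of the table, the level in A549 was 211, 184 and 204 CPM with DMSO and 465, 501 and 615 CPM with RG7112. In H1792 the sums were 67.3, 58.2 and 59.3 CPM with DMSO and 81.9, 80.1 and 86.8 CPM with RG7112. Neither line's treatments overlapped in these sums, for which no share over all genes is given. The sums have no GC correction, with which the log2 changes of CXCL8 and IL6 in H1792 were 0.22 and 0.28. They also include genes with too few counts to test.

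Of a list of 23 NF-kB and C/EBP genes, 20 were tested in A549 and 4 were called higher with RG7112, TNFAIP3, TNIP1, NFKBIA and BIRC3 (3.18% of all genes were called higher). A positive log2 fold change was found for 17, of which 8 had an unadjusted p under 0.05, and the median was 0.40 beside -0.01 over all genes. The share of all genes under that unadjusted p is not given here, so the 8 cannot be set against it. CEBPB and CEBPD were not analysed here, so no C/EBP gene was among the 20 tested. All 4 called genes restrain or relay the pathway and are themselves NF-kB targets. TNFAIP3, or A20, which removes ubiquitin from the signalling complex, rose from 25.4 ± 8.26 to 93.9 ± 34.9 CPM (SD, n = 3; log2 fold change 1.88, standard error 0.37, adjusted p = 0.0254). TNIP1, the partner of A20, rose from 603 ± 48.2 to 1302 ± 235 CPM (SD, n = 3; 1.11, standard error 0.16, adjusted p = 0.00809). NFKBIA, the inhibitor that holds NF-kB in the cytoplasm, rose by 1.09 on the log2 scale (adjusted p = 0.0460), and BIRC3, an anti-apoptotic ubiquitin ligase, by 1.26 (adjusted p = 0.0496). The last pair sat at the threshold. NFKBIA lost its call without any 1 of the 6 A549 samples (log2 fold change 0.75 without RG7112 replicate 3, otherwise adjusted p 0.0618 to 0.160), and BIRC3 without any but DMSO replicate 3 (0.0976 to 0.177). TNFAIP3 was at an adjusted p of 0.0591 to 0.0975 without any but RG7112 replicate 3, and TNIP1 at 0.0514 without DMSO replicate 1 and at a log2 fold change of 0.96 without RG7112 replicate 3 and 0.93 with the GC correction. In H1792, 9 of 20 had a positive log2 fold change and NFKBIZ, an atypical IkB protein that helps induce IL6, was the single one called (1.35, standard error 0.14, adjusted p = 0.00282), where 10.3% of all genes were called higher. TNIP1 had -0.57 in H1792 (adjusted p = 0.00506), which passed the adjusted p but not the fold threshold, and its responses differed between the lines by 1.75 (standard error 0.19, adjusted p = 0.000187).

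Of 41 other secreted factors of senescence in the table, 23 were tested in A549, where 4 were called higher and none lower (over all genes 3.18% were called higher and 3.01% lower). In H1792 20 were tested, with 3 called higher and 1 lower (over all genes 10.3% and 4.34%). At an unadjusted p under 0.05, 9 of the 23 were higher in A549 and 0 lower, and DESeq2 also called 4 higher and 0 lower there, against 2 higher and 1 lower in H1792. The shares of all genes by the unadjusted p and by DESeq2 are not given here, so these counts cannot be set against them. In A549 the insulin-like growth factor binding proteins IGFBP7 (1.03, standard error 0.12, adjusted p = 0.00319) and IGFBP3 (1.92, standard error 0.31, adjusted p = 0.0124) rose. So did the cytokine IL32 (1.44, standard error 0.25, adjusted p = 0.0167) and the granulocyte growth factor CSF3 (1.89, standard error 0.43, adjusted p = 0.0403). CSF3 had no count in H1792. IGFBP3 (adjusted p = 0.0619, 0.0558 and 0.0511 without DMSO replicate 1, DMSO replicate 2 and RG7112 replicate 2) and IL32 (0.0783 and 0.0837 without DMSO replicate 1 and 2) lost their calls in these fits. IGFBP7 fell just under the fold threshold without DMSO replicate 1 (0.98), and it also lost its call with the GC correction and with library size only. Among the fits without a single sample, CSF3 kept its call only without RG7112 replicate 3 (0.0773 to 0.134 in the other 5 fits). It also lost its call with the GC correction, with the replicate block and with library size only. In H1792 the membrane collagenase MMP14 rose from 2.80 ± 0.257 to 27.6 ± 16.2 CPM (SD, n = 3; 3.38, standard error 0.49, adjusted p = 0.00507), and the lymphocyte factor IL7 and the macrophage factor CSF1 rose by 2.01 and 1.43 on the log2 scale (adjusted p = 0.00645 and 0.0351). MMP14, IL7 and CSF1 had at most 11, 8 and 8 counts in any H1792 DMSO sample. They entered the test mainly through their RG7112 counts, so a higher value there was built into their selection. CSF1 lost its call without any 1 sample but DMSO replicate 3 (0.0725 to 0.121) and with DESeq2 (0.0619). TIMP1, an inhibitor of matrix proteases, fell by 2.08 (standard error 0.40, adjusted p = 0.0101). CXCL3, named here after its values were seen because it shares sequence with CXCL2, had 0.74 in A549 and 0.39 in H1792 (adjusted p = 0.0329 and 0.0813).

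The receptors gave no call in A549 (edgeR, 0 of 5 tested, 0 with an unadjusted p under 0.05 and 0 with DESeq2). In H1792, 6 were tested and IL6ST, the signalling subunit shared by IL6 and LIF, was called higher, where 10.3% of all genes were. It went from 2 counts or fewer in each DMSO sample to 15.2 ± 6.04 CPM with RG7112 (SD, n = 3; adjusted p = 0.00507). IL6ST entered the test through its RG7112 counts, so a higher value there was built into its selection. Of the receptors for the chemokines, CXCR2 had 2 counts, CCR6 had 6 and CCR2 had 0 over all 12 samples, while CXCR1 was not analysed here. Among the transducers of IL6 and LIF, 4 were tested in each line and 0 were called by edgeR. In H1792 SOCS3, the feedback inhibitor of this pathway, had 0.48 (adjusted p = 0.0304) and the kinase TYK2 had -0.85 (adjusted p = 0.00313), both under the fold threshold. At an unadjusted p under 0.05 there were 0 in A549 and 4 in H1792, and DESeq2 called 0 and 2, with no share of all genes given for either rule.

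Of a list of proteins that bind mRNA 3′ UTRs, 2 of 8 tested were called lower in A549 (3.01% of all genes were). The list was drawn up for AU-rich elements, but ZC3H12A and RC3H1, named below, are known for other 3′ UTR structures. ZC3H12A, or regnase-1, an RNase that degrades IL6 mRNA, fell by 1.88 on the log2 scale, from 22.9 ± 1.43 to 6.31 ± 2.58 CPM (SD, n = 3; standard error 0.36, adjusted p = 0.0225). HNRNPD, or AUF1, fell by 1.22 (standard error 0.20, adjusted p = 0.0124). In H1792, 2 of 7 were called higher (10.3% of all genes were), the decay factor ZFP36L1 (2.67, standard error 0.44, adjusted p = 0.00658) and RC3H1, or roquin-1 (1.47, standard error 0.42, adjusted p = 0.0363), whose call ended with the GC correction. Without A549 DMSO replicate 1, 2 or 3 or RG7112 replicate 2 the adjusted p of ZC3H12A was 0.0656 to 0.0810, and that of HNRNPD was 0.0540 without DMSO replicate 1. RC3H1 was at 0.0873 to 0.119 without H1792 DMSO replicate 1 or 3 or RG7112 replicate 2 or 3. The difference between the responses passed for 3 genes, each with a lower value in A549, HNRNPD and, named after their values were seen, ELAVL1 and KHSRP, and 11.4% of all genes passed in that direction.

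Interleukin 1 processing and the cGAS-STING pathway had no call in A549. The 4 tested genes of the first list had log2 fold changes above 0, with PYCARD, the inflammasome adaptor, at 1.11 (adjusted p = 0.0505) and IL18 at 1.52 (adjusted p = 0.0865). All 4 had an unadjusted p under 0.05, and DESeq2 called PYCARD and IL18, with no share of all genes given for either rule. In H1792 CASP4 alone was tested, at -0.32 (adjusted p = 0.0256). Of the cGAS-STING genes, which sense DNA in the cytoplasm and are known to drive the secretory phenotype, 4 were tested in A549 and 0 were called by edgeR or DESeq2, with 0 at an unadjusted p under 0.05. In H1792, 4 were tested, with 1 called higher and 1 lower (over all genes 10.3% and 4.34%). The sensor CGAS went from no count with DMSO to 12.03 ± 6.85 CPM with RG7112 (SD, n = 3; adjusted p = 0.0106). It entered the test only through its RG7112 counts, so a higher value there was built into its selection. The adaptor STING, listed as TMEM173, fell by 1.01 (standard error 0.13, adjusted p = 0.00378). That call ended with the GC correction (-0.79) and without H1792 DMSO replicate 3 (-0.98) or RG7112 replicate 2 (-0.94).

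**Figure D3:**
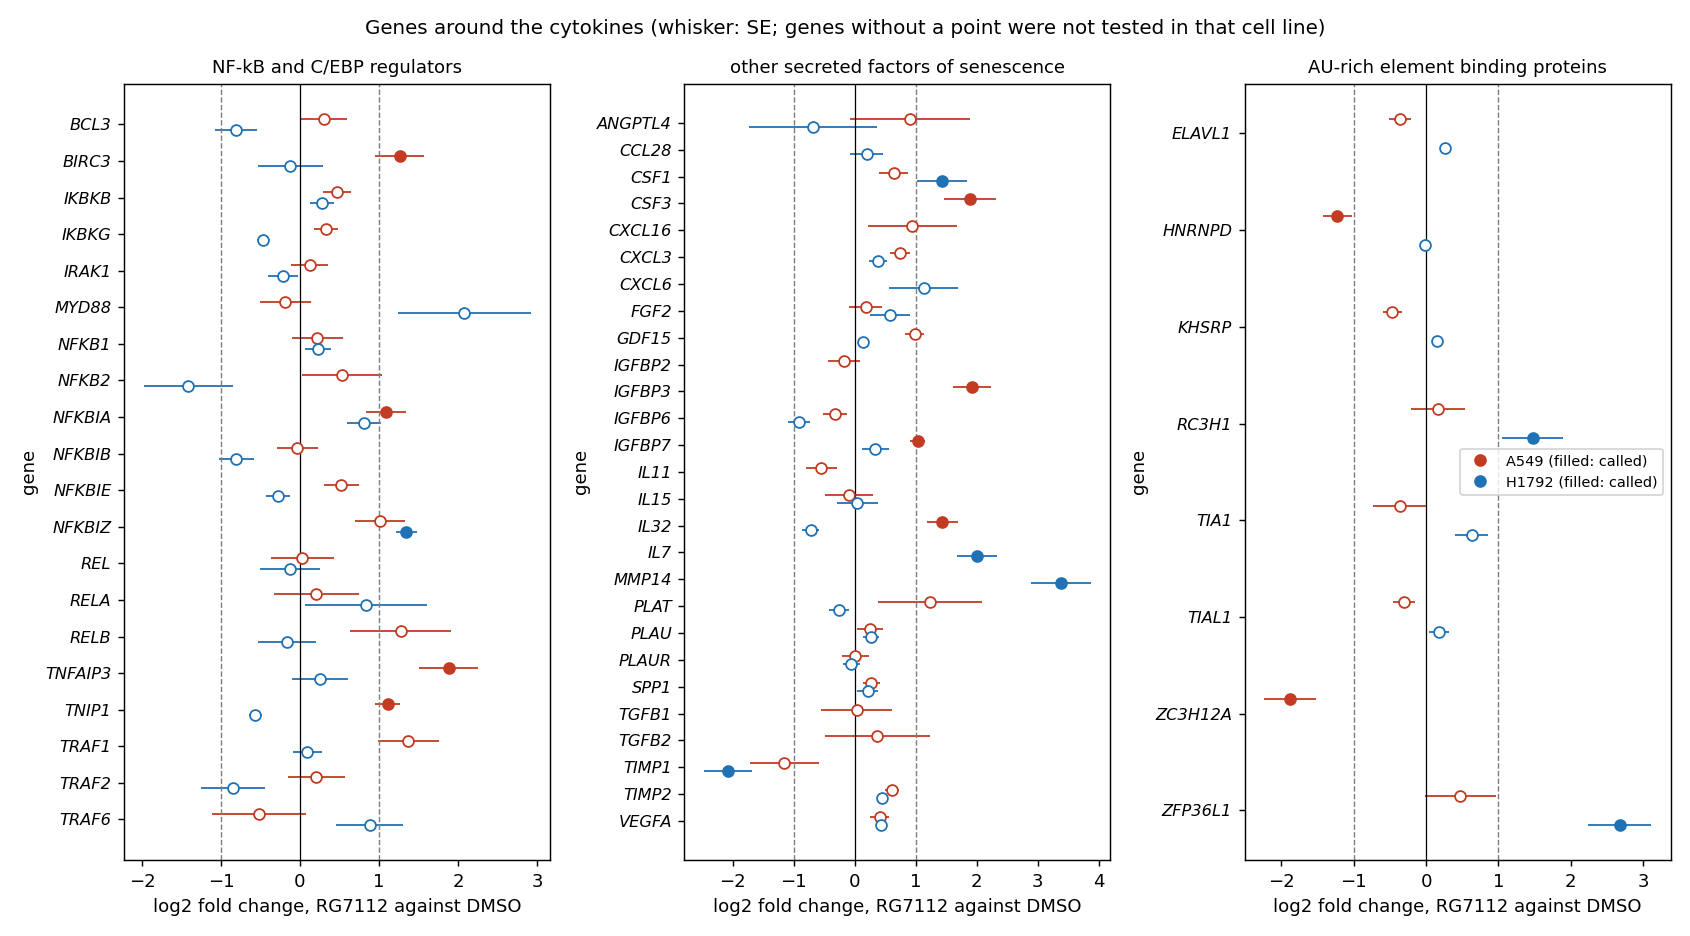
Log2 fold change of RG7112 against DMSO (horizontal axis, whiskers: standard error) for the tested genes of 3 lists, A549 in red and H1792 in blue, filled where called and with dashed lines at the fold threshold. In A549, 17 of the 20 tested genes of the NF-kB and C/EBP list, none of them a C/EBP gene, lie to the right of 0. The filled points among them are TNFAIP3, TNIP1, NFKBIA and BIRC3.

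By Pearson's r of log2(CPM + 1) over the 12 samples, the 5 genes most like CCL2, the listed gene with the highest mean level, included SLC44A2 (0.998), HID1 (0.997), NOXA1 (0.997) and ENSG00000112493 (0.996), of 11660 genes compared. The 12 points fall into the 2 cell lines, so these coefficients mostly describe the difference between the lines and are given as a description.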

How the data were processed

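RNA from 12 samples was measured by poly-A RNA-seq. The deposited table holds the authors' expected counts, which are kallisto 0.45.0 estimates against Ensembl GRCh38 transcripts, summed by gene, whole and not normalized, per the study's methods and the submitters' processing notes. The methods and the labels give different read lengths. Samples were matched to columns by cell line, treatment and replicate number. Counts were analysed in R 4.3.3 with edgeR 4.0.16 (filterByExpr with a minimum count of 10 and a minimum total of 15, TMM, robust quasi-likelihood fit) in each cell line, and over all 12 samples for the difference between responses and between untreated lines. Alternatives were DESeq2 1.42.0, limma-trend (limma 3.58.1, prior count 2), other scalings and filters, a GC correction (loess, span 0.5), a replicate block and leaving out each sample. A fit without replicate 3 of both A549 treatments, and one with CXCL1 and CXCL2 added, were chosen after seeing the data. The procedure was also run on simulated data, with less spread between replicates than in these samples and larger changes than most listed genes called here. That run says little about calls near the thresholds. The genes and lists were chosen with earlier results of these data known. The text names all 10 listed genes, the called genes of each list (up to 4 with the smallest p per list and line, else the 2 with the smallest p), MDM2 and CDKN1A, and genes among the 5 most correlated with the most abundant listed gene. Some genes that this rule names are not reported here. A fold against a group with at most 3 counts in each sample is given as a lower bound, except for LIF, where a sample of the other group was at the floor too. Positions, GC content and 31-base stretches come from GENCODE v29, promoters from RefSeq. Proteins were not analysed here.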

Additional observations from a re-analysis of the deposited data

Results flagged for a closer look

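The response of CXCL2 differed between the cell lines by a test of the difference itself: 0.99 on the log2 scale, A549 minus H1792 (adjusted p = 0.0173 from edgeR). The response of CCL2 differed in the same test by 1.30 (adjusted p = 0.0174 from edgeR). Both rest on 3 samples per group, and the calls end without certain single libraries, as given with these results above.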

How the results depend on the processing

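Of the 6 tested genes, the number called in A549 was 3, and 5 with the GC correction, with the replicate block and GC correction together, and with no fold threshold. It was 1 to 3 over the fits without a single sample. In H1792 the number was 1, and 0 with the GC correction, with the block and GC correction together and with all 12 samples in one fit, and 0 to 1 over the fits without a single sample. The responses differed for 2 genes, for 1 with library size only and for 1 with at least 10 counts in every sample, a filter that left 3 genes to test, and for 1 to 3 over such fits. Between the untreated lines 3 were called, 1 with that filter, and 3 to 4 over such fits.

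The replicate numbers are shared by the groups, and deviations of same-numbered samples were correlated at 0.145, 0.0668 and 0.293 in A549 and at -0.0386, -0.0182 and -0.0002 in H1792. Samples of different numbers were at -0.232 to 0.144 in A549 and -0.0267 to 0.0392 in H1792. In A549, replicate 3 was at 0.293 with its own number and at -0.232 to -0.140 with the others. The main fits did not take the numbers as pairs, though these values do not exclude pairing in A549. With the replicate block 2 genes were called in A549 (CXCL8 and IL6, with CXCL1 at 2.19 and adjusted p = 0.0518), 1 in H1792, 2 for the difference and 4 between the untreated lines.

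Signs reversed for values near 0 or with large errors. CCL2 in H1792 was 0.0065 with library size only. CXCL2 in H1792 was -0.28 with the GC correction, -0.28 with the block as well, -0.057 (without H1792 DMSO replicate 2) to 0.13 over the fits without a single sample and -0.0042 with all 12 samples. The CXCL1 difference was 0.56 with limma-trend and ranged from -4.05 to 0.23 over the fits without a single sample, the highest without H1792 RG7112 replicate 3. IL6 between the untreated lines was 0.17 with the block and GC correction, where CXCL8 was -0.66 in place of -1.34. TYK2 in A549, at 0.14, was -0.084 with the GC correction, -0.089 with the block as well, -0.19 to 0.36 over the fits without a single sample, negative without DMSO replicate 1 (-0.048) or RG7112 replicate 3 (-0.19), and -0.030 without replicate 3 of both treatments. Over 897 values of single genes under the alternatives, 749 kept their direction and side of the threshold, 105 lost a call, 30 gained one and 13 reversed. Of the list counts, the other secreted factors in A549 went from 4 to 2 with the GC correction and with library size only. The cause was not tested. Library size only moved the median log2 fold change of all genes by 0.26 in H1792. Depth limits CXCL1 and LIF in H1792, and IL1B and CCL20 in both lines.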
